A study of Drosophila melanogaster with 8 samples.

Results

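Starch digestion in the fly larva begins with alpha-amylase, which gut cells secrete into the lumen to cut starch into short glucose chains; alpha-glucosidases of the maltase type then release glucose from these. Amylase RNA in flies is known to be held down by dietary glucose. The genes described here are Amy-p and Amy-d, the proximal and distal copies of the amylase gene, Amyrel, a diverged amylase relative, and tobi, named target of brain insulin, which encodes a glycosidase of the alpha-glucosidase kind whose RNA is known to respond to dietary protein and dietary sugar in opposite directions. They are 4 of the 15904 rows of the deposited tables, found by gene name. They were chosen by their FPKM in these same 4 genotypes, so their levels, ratios and the authors' calls on them are given as a description, and none is independent support. The labels give no diet, and no diet was compared.

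RNA came from whole wandering larvae of the last instar, with 2 libraries for each of 4 genotypes and 5 larvae pooled in each library. The first genotype is labelled as the recombinant of Hsp90GFP and hsromega66 (w1118; Sp/CyO';hsp90GFPhsromega66) and is called the labelled recombinant below. Hsp90GFP (w1118; Sp/CyO';hsp90GFP) over-expresses Hsp83, the gene of the chaperone Hsp90, per the series title; the promoter is not named there. hsromega66 (w1118; Sp/CyO';hsromega66) is described there as close to a null allele of hsromega, a gene of non-coding RNA. WT is Oregon R+. Every genotype but WT carries the w1118; Sp/CyO' background in its label, so each comparison with WT also compares backgrounds, and the effect of the genotype cannot be told apart from that of the background. The label Sp/CyO' names a marked and a balancer chromosome 2, and the 3 amylase genes lie on chromosome 2, so the copies of these genes themselves may differ between the mutant stocks and WT. Hsromega was at 77.9 FPKM in the labelled recombinant, 273 FPKM in Hsp90GFP, 0.767 FPKM in hsromega66 and 236 FPKM in WT, which goes against the label of the first of these. Hsp83 was at 968, 1616, 427 and 371 FPKM in the same order.

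The tables hold 1 value per gene and genotype, in FPKM (fragments scaled to the length of the gene and to the mapped fragments of the library), and no value per library was used, so no spread between the replicates stands beside a level and the depth is unknown. A gene is called when its q-value from Cuffdiff in the authors' deposited table was under 0.05. Below, rose and fell are written only of called genes, and genes not called may also lie above or below the reference. Nothing in the labels says whether the libraries of a genotype came from separate cultures, so the authors' p-values may measure technical spread only. The standard error of a log2 ratio was implied by dividing the ratio by the deposited test statistic, and the intervals given are 95% normal intervals from it. The deposited p-values do not follow from that statistic by a normal curve: for tobi in hsromega66 against WT the authors' deposited table gives p = 0.0757, and a normal reading of its statistic of 1.16 gives 0.245. In whole larvae, fewer cells of a type and less RNA per cell cannot be told apart.

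Amy-p (FBgn0000079, dm6 2R 17118636 to 17120303, minus strand) and Amy-d (FBgn0000078, 2R 17124764 to 17126369, plus strand) each have 1 exon and a coding sequence for 494 residues, and 4460 bp lie between them. They point away from each other, and between them the annotation places the serpin gene Spn53F and the antisense RNA CR45272, both at or under 0.0318 FPKM in every genotype. Amyrel (FBgn0020506, 2R 16651095 to 16652699, minus strand) has 2 exons and codes for 493 residues, and it lies 465936 bp from Amy-p. tobi (FBgn0261575, 3R 25344761 to 25346921, minus strand) has 2 exons and codes for 657 residues. It is on the same arm as hsromega, 4026924 bp away.

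Amy-p was at 203 FPKM in the labelled recombinant, 32.3 FPKM in Hsp90GFP, 81.5 FPKM in hsromega66 and 19.0 FPKM in WT. Amy-d was at 53.0 FPKM in the labelled recombinant, 34.2 FPKM in Hsp90GFP, 171 FPKM in hsromega66 and 9.13 FPKM in WT. The labelled recombinant was thus the highest genotype for the proximal copy and hsromega66 for the distal copy, while Hsp90GFP was next to lowest and WT lowest for both.

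Amyrel was at 28.6 FPKM in the labelled recombinant, 18.6 FPKM in Hsp90GFP, 38.3 FPKM in hsromega66 and 10.4 FPKM in WT. tobi was at 127 FPKM in the labelled recombinant, 9.53 FPKM in Hsp90GFP, 17.2 FPKM in hsromega66 and 3.82 FPKM in WT. Amyrel had the order of Amy-d and tobi the order of Amy-p. The highest level was 33.3 times the lowest for tobi, 18.7 times for Amy-d, 10.7 times for Amy-p and 3.69 times for Amyrel. Among 8821 rows that reached 5 FPKM in some genotype, the range of log2(FPKM + 1) over the genotypes was at the 96.8th percentile for tobi, the 95.4th for Amy-d, the 92.3rd for Amy-p and the 77.5th for Amyrel. All 4 genes had WT lowest and Hsp90GFP next, an order found in 10.8% of those rows; WT alone was lowest in 22.3% of them.

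**Figure D1:**
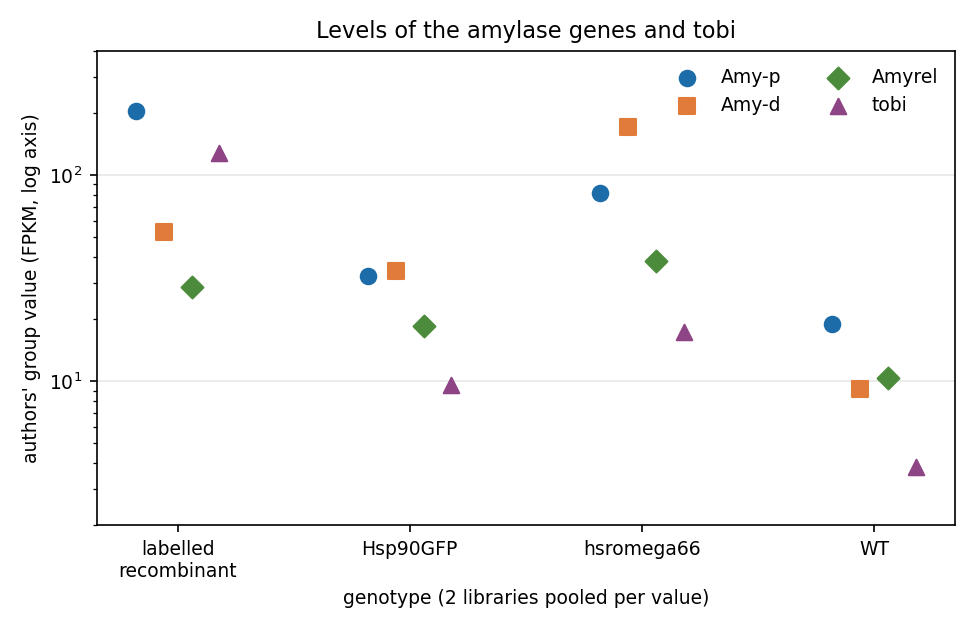
Group level in FPKM (log axis) of Amy-p, Amy-d, Amyrel and tobi in the labelled recombinant, Hsp90GFP, hsromega66 and WT, with 1 point per gene and genotype and no error bar because the tables give 1 value each. All 4 genes are lowest in WT, and the highest point is Amy-p at 203 FPKM in the labelled recombinant.

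Most steps between neighbours in these orders were not called by the authors' test, which does not show that the levels were alike. For Amy-p, no step between adjacent genotypes was called, with steps of 2.49-fold, 2.52-fold and 1.70-fold from the top down (authors' deposited table, q = 0.384, 0.329 and 0.611). For Amy-d only the lowest step was called, Hsp90GFP above WT by 3.74-fold (authors' deposited table, q = 0.0223). Its step of 3.22-fold between hsromega66 and the labelled recombinant was not called (authors' deposited table, q = 0.199). For Amyrel no step was called, and the widest was 1.79-fold. For tobi only the top step was called, the labelled recombinant above hsromega66 by 7.38-fold (authors' deposited table, q = 0.00372).

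Against WT, 3 of the 4 genes rose in the labelled recombinant, where 8.66% of 12656 tested genes were called, 4.61% higher and 4.05% lower. tobi rose 33.3-fold, with an implied interval of 2.78-fold to 399-fold (authors' deposited table, q = 0.00824). Amy-p rose 10.7-fold, with an interval of 3.25-fold to 35.3-fold (authors' deposited table, q = 0.00144). Amy-d rose 5.80-fold, with an interval of 1.82-fold to 18.5-fold (authors' deposited table, q = 0.00264). Amyrel was at 28.6 FPKM against 10.4 FPKM in WT and was not called (authors' deposited table, q = 0.394). The implied standard error of tobi was 1.83 on the log2 scale and that of Amy-p 0.877, where the median over all genes with a ratio was 1.03.

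In hsromega66, 2 of the 4 genes rose against WT, where 1.24% of 12523 tested genes were called, 0.862% higher and 0.375% lower. Amy-d rose 18.7-fold, with an interval of 4.84-fold to 72.1-fold (authors' deposited table, q = 0.00144). Amy-p rose 4.30-fold, with an interval of 1.18-fold to 15.6-fold, and its q of 0.0492 in the authors' deposited table lay just inside the threshold. That call was lost when the p-values of the authors' deposited table were adjusted by Benjamini-Hochberg inside that comparison (adjusted p = 0.319), and likewise when those of all 6 were adjusted together (adjusted p = 0.0906). Amyrel was at 38.3 FPKM against 10.4 FPKM in WT (ratio 3.69) and tobi at 17.2 FPKM against 3.82 FPKM (ratio 4.51), and neither was called (authors' deposited table, q = 0.220 and 0.384). The tobi ratio was as large as the called Amy-p ratio, but its implied standard error was 1.87 on the log2 scale, against 0.951 for Amy-p.

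In Hsp90GFP, 1 of the 4 genes rose against WT, where 1.09% of 12621 tested genes were called, 0.618% higher and 0.467% lower. Amy-d was at 34.2 FPKM against 9.13 FPKM in WT, with an interval of the ratio of 1.29-fold to 10.9-fold. The call was lost when the p-values of the authors' deposited table were adjusted inside that comparison (adjusted p = 0.177) and held when all 6 were adjusted together (adjusted p = 0.0421). Amy-p at 32.3 FPKM (WT 19.0), Amyrel at 18.6 FPKM (WT 10.4) and tobi at 9.53 FPKM (WT 3.82) were not called. The 3 comparisons with WT share the WT libraries, so the level of WT enters all of them.

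Between mutant stocks with the same labelled background, 1 of the 4 genes rose in the labelled recombinant against hsromega66, where 7.30% of 12488 tested genes were called, 3.68% higher and 3.63% lower. That gene was tobi, and the interval of its ratio was 2.13-fold to 25.6-fold. Amy-p was at 203 FPKM against 81.5 FPKM in hsromega66 and Amy-d at 53.0 FPKM against 171 FPKM, opposite in direction, and neither was called (authors' deposited table, q = 0.384 and 0.199). Against Hsp90GFP, 2 of the 4 genes rose in the labelled recombinant, where 6.66% of 12605 tested genes were called, 3.51% higher and 3.14% lower. tobi rose 13.4-fold, with an interval of 2.89-fold to 61.6-fold (authors' deposited table, q = 0.00908), and Amy-p rose 6.29-fold, with an interval of 1.89-fold to 20.9-fold (authors' deposited table, q = 0.00264). Amy-d was at 53.0 FPKM against 34.2 FPKM in Hsp90GFP, not called (authors' deposited table, q = 0.694).

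In Hsp90GFP against hsromega66, none of the 4 genes was called by Cuffdiff, where 0.997% of 12534 tested genes were called, 0.343% higher and 0.654% lower, and 1 of the 4 had an unadjusted p under 0.05. That gene was Amy-d, at 34.2 FPKM in Hsp90GFP against 171 FPKM in hsromega66, and its q of 0.0510 in the authors' deposited table lay just outside the threshold. All 4 genes were at lower values in Hsp90GFP than in hsromega66. None was called there under any of the other adjustments tried.

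**Figure D2:**
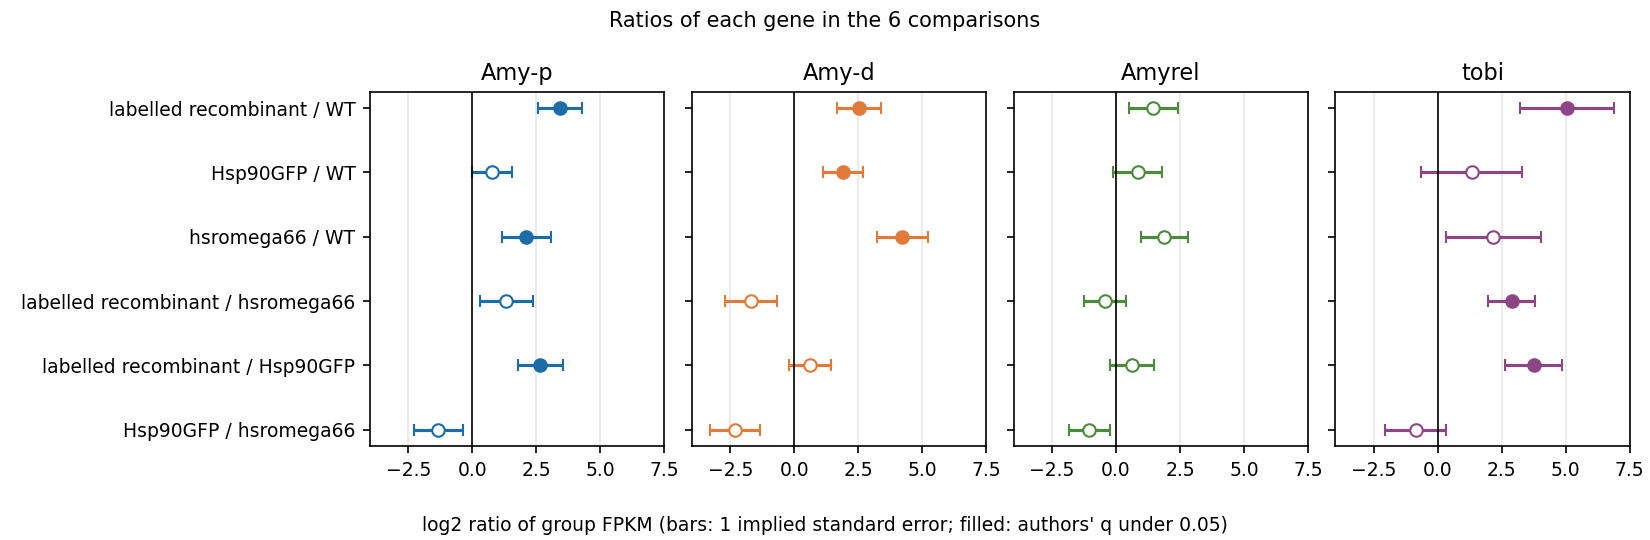
Log2 ratio of group FPKM for each of the 4 genes (columns) in the 6 comparisons (rows, named as numerator / denominator); bars show 1 implied standard error and filled points have a q under 0.05 in the authors' deposited table. Amyrel has no filled point in any comparison, and the widest bars are those of tobi against WT.

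The 2 amylase copies differed in how their combined level was split. Their summed level was 256 FPKM in the labelled recombinant, 66.5 FPKM in Hsp90GFP, 252 FPKM in hsromega66 and 28.1 FPKM in WT. The labelled recombinant and hsromega66 thus had nearly the same sum, at 9.11 and 8.97 times that of WT. Amy-d made up 20.7% of the sum in the labelled recombinant, 51.4% in Hsp90GFP, 67.7% in hsromega66 and 32.5% in WT. In the labelled recombinant Amy-p was 3.83 times Amy-d, and in WT it was 2.08 times Amy-d, while in hsromega66 Amy-d was 2.09 times Amy-p. These shares rest on 1 value per gene and genotype and were not tested. Both copies are known to have nearly identical coding sequences, so reads that fit both copies may be counted for either, and the sources used here do not say how they were assigned. The level of each copy, and the split more than the sum, is uncertain for that reason.

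**Figure D3:**
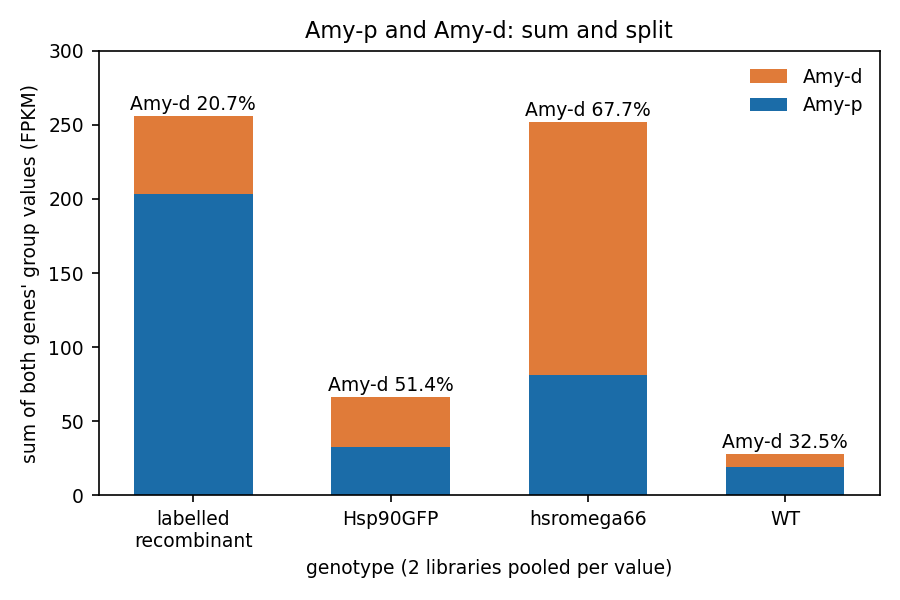
Stacked bars of the group FPKM of Amy-p (lower part) and Amy-d (upper part) in the 4 genotypes, with the share of Amy-d in the sum written above each bar. The labelled recombinant and hsromega66 bars reach 256 and 252 FPKM with opposite splits.

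Relative to the summed amylase copies, Amyrel was at 11.2% in the labelled recombinant, 28.0% in Hsp90GFP, 15.2% in hsromega66 and 37.0% in WT. tobi was at 49.7% of that sum in the labelled recombinant, 14.3% in Hsp90GFP, 6.84% in hsromega66 and 13.6% in WT. The ratio of tobi to the amylase sum was highest in the labelled recombinant, in values without a test.

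The rows of Amyrel and tobi span a neighbour on the opposite strand. Amyrel overlaps the end of gprs by 31 bp, and tobi overlaps the end of rha by 78 bp. The library kit marks strand, but the sources used here do not say whether counting used it. gprs was at 0.851 FPKM in the labelled recombinant, 0.764 FPKM in Hsp90GFP, 0.739 FPKM in hsromega66 and 0.440 FPKM in WT, far below Amyrel in each. rha was at 0.477, 3.48, 2.35 and 3.74 FPKM in the same order, lowest where tobi was highest, and was not called in any of the 6 comparisons. Downstream of Amy-d, CG15605 was at 0.182 FPKM in the labelled recombinant, 1.57 FPKM in Hsp90GFP, 1.81 FPKM in hsromega66 and 2.78 FPKM in WT. The next gene, the chitin deacetylase gene Cda9, was at 70.2, 41.2, 51.8 and 34.2 FPKM in the same order. Neither neighbour was called in any comparison.

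The alpha-glucosidases that act after amylase were described by the 10 maltase genes Mal-A1 to Mal-A8, Mal-B1 and Mal-B2, all with rows of their own. In the labelled recombinant 7 of 10 rose and 1 fell against WT, with 4.61% of all genes called higher and 4.05% lower; the median log2 ratio was 2.79, against -0.06 over all genes. At q under 0.01 the 8 calls became 4. Mal-A1 was at 315 FPKM against 5.07 FPKM in WT, Mal-A8 at 173 against 9.07 FPKM, Mal-A3 at 150 against 9.93 FPKM and Mal-A7 at 24.7 against 0.516 FPKM, and all of these rose. Mal-A5 fell to 56.4 FPKM, against 218 FPKM in WT. In hsromega66 1 of 10 rose, Mal-A1 at 40.5 FPKM against 5.07 FPKM in WT, where 0.862% of all genes were called higher, and the median log2 ratio was 1.05, against -0.04 over all genes. In Hsp90GFP none of 10 was called by Cuffdiff, where 1.09% of all genes were called, and none had an unadjusted p under 0.05. The median log2 ratio there was 0.25, against -0.05 over all genes.

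Between the mutant stocks, 6 of the 10 maltase genes rose in the labelled recombinant against hsromega66 and 7 rose against Hsp90GFP, where 3.68% and 3.51% of all genes were called higher. None was called lower in either, though 2 and 3 of the 10 were at lower values. Mal-A5 was among these, at 56.4 FPKM against 163 FPKM in hsromega66 and 175 FPKM in Hsp90GFP. Against hsromega66, Mal-A1 rose 7.78-fold, Mal-A7 7.71-fold, Mal-A8 5.05-fold and Mal-A3 4.44-fold. Against Hsp90GFP the same 4 genes rose 57.04-fold, 36.9-fold, 11.4-fold and 7.10-fold. In Hsp90GFP against hsromega66, Mal-A1 fell 7.33-fold and no other maltase gene was called, where 0.343% of all genes were called higher and 0.654% lower.

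Other secreted gut hydrolases, 35 trypsin, Jonah protease, lysozyme and lipase genes with own rows, had calls in all 6 comparisons, including those in which no amylase gene was called. In the labelled recombinant 10 rose and 1 fell against WT, where 4.61% of all genes were called higher and 4.05% lower, and the median log2 ratio was 1.81, against -0.06 over all genes. The trypsin-like genes lambdaTry and kappaTry were at 156 and 122 FPKM, against 0.965 and 3.20 FPKM in WT, and Jon74E at 402 FPKM against 29.7 FPKM. In hsromega66 8 were called higher and none lower against WT, where 0.862% of all genes were called higher and 0.375% lower. Of 34 with a ratio, 29 were above WT and 5 below, and the median log2 ratio was 1.40, against -0.04 over all genes. The 8 calls became 2 at q under 0.01, 2 with Benjamini-Hochberg adjustment inside that comparison and 4 with adjustment over all 6 tables. The lipase gene Lip3 was at 43.1 FPKM against 1.75 FPKM in WT, and the lysozyme gene LysX at 224 FPKM against 38.1 FPKM. In Hsp90GFP 3 rose and 2 fell against WT, where 0.618% of all genes were called higher and 0.467% lower, and the median log2 ratio was 0.14, against -0.05 over all genes. The 5 calls became 1 with adjustment inside that comparison. Jon99Fi was at 2041 FPKM against 321 FPKM in WT and betaTry at 430 FPKM against 97.6 FPKM, both rises, while LysX fell to 4.27 FPKM against 38.1 FPKM. LysX fell in the labelled recombinant too, to 2.1 FPKM. The other 6 lysozyme genes on the list were at higher values in the labelled recombinant than in WT and were not called: LysD was at 7363 FPKM against 5.49 FPKM in WT, LysB at 3682 FPKM against 9.52 FPKM and LysS at 3597 FPKM against 780.0 FPKM. LysE was at 353 FPKM against 0.0458 FPKM in WT, LysP at 14.8 FPKM against 1.63 FPKM, and LysC at 72.4 FPKM, listed at 0 in WT. These lysozyme values were picked out after they were seen. Trypsin, Jonah and lysozyme genes such as betaTry and Jon99Fi have close copies, so their separate levels are uncertain in the way of the amylase copies.

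Between mutant stocks, 5 of these hydrolases rose and 2 fell in the labelled recombinant against hsromega66, 11 rose and 1 fell against Hsp90GFP, and 1 rose and 3 fell in Hsp90GFP against hsromega66. Over all genes, 3.68% were called higher and 3.63% lower in the first of these comparisons, 3.51% and 3.14% in the next, and 0.343% and 0.654% in the last. The 12 calls against Hsp90GFP became 5 at q under 0.01. Against hsromega66 the labelled recombinant had kappaTry at 122 FPKM against 15.3 FPKM, a rise, and LysX at 2.1 FPKM against 224 FPKM, a fall. Against Hsp90GFP it had Jon44E at 377 FPKM against 54.6 FPKM, a rise. In Hsp90GFP, Jon74E rose to 149 FPKM against 9.33 FPKM in hsromega66, and thetaTry fell to 23.4 FPKM against 91.1 FPKM.

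All 10 gut markers listed had rows of their own, none was at 0 in any genotype, and their summed level was 7381 FPKM in the labelled recombinant, 1669 FPKM in Hsp90GFP, 4599 FPKM in hsromega66 and 1713 FPKM in WT. Most of each sum is Peritrophin-15a, at 5561, 1080.0, 3392 and 1167 FPKM in the same order. The median level of the 10 markers was 71.3 FPKM in the labelled recombinant, 33.2 FPKM in Hsp90GFP, 29.8 FPKM in hsromega66 and 18.7 FPKM in WT, so the labelled recombinant was highest by both measures and the order of the others differed between them. In the labelled recombinant 6 of 10 rose against WT, where 4.61% of all genes were called higher and 4.05% lower, and the median log2 ratio was 1.87, against -0.06 over all genes. Npc1b, a midgut sterol transporter, was at 28.8 FPKM against 2.75 FPKM in WT. Vha100-4, a proton pump subunit, was at 29.9 FPKM against 3.11 FPKM. Peritrophin-15a, of the lining of the gut lumen, was at 5561 FPKM against 1167 FPKM, and GATAe, a transcription factor of the endoderm, was at 13.9 FPKM against 4.22 FPKM in WT.

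In hsromega66 and Hsp90GFP none of the 10 gut markers was called against WT by Cuffdiff, where 1.24% and 1.09% of all genes were called. In each, 8 of 10 were above WT, with 2 and 1 at an unadjusted p under 0.05 and medians of 0.77 and 0.46 on the log2 scale. In the labelled recombinant against WT, the log2 ratios of the 10 gut markers ran between 0.50 for Ssk and 3.39 for Npc1b; those of the 4 genes were 1.46 for Amyrel, 2.54 for Amy-d, 3.42 for Amy-p and 5.06 for tobi. Within the mutant stocks, 2 gut markers rose in the labelled recombinant against hsromega66 and 3 against Hsp90GFP, where 3.68% and 3.51% of all genes were called higher. The part of gut RNA content in the levels of the amylases and tobi was not tested.

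**Figure D4:**
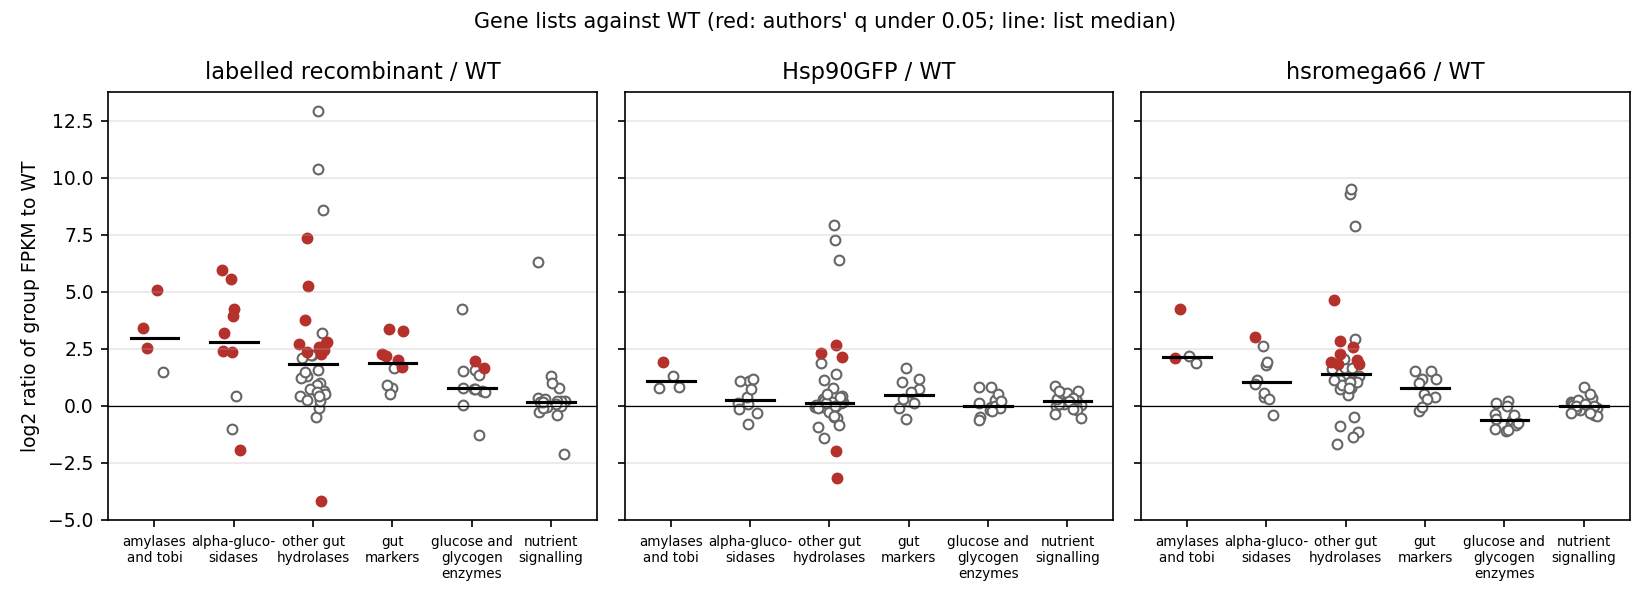
Log2 ratio of group FPKM to WT for the amylases and tobi and for 5 gene lists, in the labelled recombinant, Hsp90GFP and hsromega66; each point is a tested gene, red points have a q under 0.05 in the authors' deposited table, lines are medians, and LysC, listed at 0 in WT, is not drawn. The median of the alpha-glucosidases is 2.79 in the labelled recombinant and 0.25 in Hsp90GFP, and the medians of the nutrient signalling genes are 0.17 in the labelled recombinant, 0.23 in Hsp90GFP and -0.02 in hsromega66.

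Markers of other tissues and of stage also differed in the labelled recombinant. Of 6 fat body markers with own rows, 2 fell and 1 rose there against WT, where 4.05% of all genes were called lower and 4.61% higher. The storage protein gene Lsp2 was at 178 FPKM against 10998 FPKM, and Fbp1 at 2.49 FPKM against 5996 FPKM. Lsp1alpha was at 5287 FPKM against 6652 FPKM, Lsp1beta at 11259 against 8845 FPKM, apolpp at 1731 against 1481 FPKM and Apoltp at 40.5 against 7.26 FPKM. Thus 3 were above WT and 3 below, with a median log2 ratio of -0.05, against -0.06 over all genes. The 6 salivary glue genes summed to 28.1 FPKM in the labelled recombinant, 28409 FPKM in Hsp90GFP, 50415 FPKM in hsromega66 and 46178 FPKM in WT. Against WT, 2 were called lower in the labelled recombinant and 1 in hsromega66, where 4.05% and 0.375% of all genes were called lower. Of 12 genes that follow the moulting hormone ecdysone, 4 fell in the labelled recombinant against WT, where 4.05% of all genes were called lower. There 11 were below WT and 1 above, 10 had an unadjusted p under 0.05, and the median log2 ratio was -3.18. None was called against WT by Cuffdiff in Hsp90GFP or hsromega66, where 1.09% and 1.24% of all genes were called. In these, 2 and 0 had an unadjusted p under 0.05. In the labelled recombinant 5 fell and 1 rose against hsromega66, and 3 fell and none rose against Hsp90GFP. Over all genes, 3.63% were called lower and 3.68% higher in the first of these comparisons, and 3.14% and 3.51% in the next. The median log2 ratios there were -3.30 and -2.40. The 7 muscle markers summed to 13448 FPKM in the labelled recombinant, 7272 FPKM in Hsp90GFP, 3492 FPKM in hsromega66 and 6171 FPKM in WT. The 3 neuron markers summed to between 31.6 and 40.6 FPKM in all genotypes, and the 2 hemocyte markers to between 41.4 and 89.4 FPKM. None of the muscle, neuron or hemocyte markers was called against WT by Cuffdiff or had an unadjusted p under 0.05. Over all genes, 8.66% were called in the labelled recombinant, 1.09% in Hsp90GFP and 1.24% in hsromega66. Of the 7 muscle markers, 2 rose in the labelled recombinant against hsromega66, where 3.68% of all genes were called higher, and 7 of 7 had an unadjusted p under 0.05: the myosin heavy chain gene Mhc was at 1531 FPKM against 174 FPKM in hsromega66, and the troponin T gene up at 1217 FPKM against 254 FPKM. The part of stage or tissue content in the results was not tested.

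Genes that carry nutrient signals showed no calls. Of 20 such genes with own rows, 19 or 20 of them tested in a comparison, none was called by Cuffdiff in any of the 6 comparisons. At most 2 had an unadjusted p under 0.05 in a comparison. Over all genes, between 0.997% and 8.66% were called in a comparison, so none of 20 is not far from the share over all genes. Mondo, a sugar-sensing transcription factor listed under its older symbol Mio, was at 29.1 FPKM in the labelled recombinant, 25.8 FPKM in Hsp90GFP, 23.7 FPKM in hsromega66 and 25.5 FPKM in WT. The activin-type ligand gene daw, known in flies to act in the repression of digestive enzymes by sugar, was at 29.5, 42.9, 26.0 and 23.5 FPKM in the same order. The row that merges the sugar-induced zinc finger gene sug with CG13319 was at 55.8, 35.9, 43.5 and 35.8 FPKM, and was not called either.

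foxo, the transcription factor held back by insulin signals, was at 18.5 FPKM in the labelled recombinant, 21.1 FPKM in Hsp90GFP, 18.02 FPKM in hsromega66 and 20.1 FPKM in WT. The adipokinetic hormone gene Akh was at 3.57, 3.93, 4.34 and 3.08 FPKM in the same order, and its receptor gene AkhR at 14.9, 20.7, 13.0 and 13.3 FPKM. Not all levels on the list were alike: upd2, a gene of a fat body cytokine picked out after its values were seen, was at 1.71 FPKM in the labelled recombinant, 0.345 FPKM in Hsp90GFP, 0.218 FPKM in hsromega66 and 0.0218 FPKM in WT. upd2 was not called, and its levels were low. Ilp6, an insulin-like peptide gene picked out in the same way, was at 10.7, 32.1, 34.0 and 47.0 FPKM in the same order. Hnf4, likewise picked out, was at 26.2, 15.3, 14.0 and 13.1 FPKM. Neither was called in any comparison. Of the 20 genes on the list, 14 were above WT and 6 below in the labelled recombinant.

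Of 13 genes with own rows for glucose, glycogen and trehalose metabolism, 2 rose in the labelled recombinant against WT, 4 against hsromega66 and 1 against Hsp90GFP. None was called lower. Over all genes, 4.61%, 3.68% and 3.51% were called higher in these comparisons, so 1 of 13 is near the share over all genes. At q under 0.01 the counts became 0, 1 and 0. AGBE, the glycogen branching enzyme gene, was at 91.7 FPKM, against 27.4 FPKM in Hsp90GFP, 16.2 FPKM in hsromega66 and 29.2 FPKM in WT, and was called in all 3. The fructose-bisphosphatase gene fbp was at 166 FPKM against 43.1 FPKM in both hsromega66 and WT. The glycogen synthase gene GlyS at 120 FPKM against 31.0 FPKM and the phosphofructokinase gene Pfk at 85.4 FPKM against 24.1 FPKM rose against hsromega66. Hex-C, picked out after its values were seen, was at 35.7 FPKM in the labelled recombinant. It was at 1.24 FPKM in Hsp90GFP, 0.948 FPKM in hsromega66 and 1.90 FPKM in WT, and was not called. In hsromega66 and in Hsp90GFP none of the 13 was called against WT by Cuffdiff or had an unadjusted p under 0.05. Over all genes, 1.24% and 1.09% were called there. The hsromega66 median log2 ratio to WT was -0.61, against -0.04 over all genes, opposite in sign to that of the maltase genes (1.05). For these 13 genes it was 0.77 in the labelled recombinant, with 12 above WT and 1 below, against -0.06 over all genes. In Hsp90GFP it was -0.007, against -0.05 over all genes.

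The genes whose levels over the 4 genotypes were most like those of each gene were found by the Euclidean distance of log2(FPKM + 1), centred on the mean of the 4 genotypes, among 8328 rows of at least 5 FPKM in some genotype. With 4 points per gene this is a description of these levels. tobi was nearest to the serine protease gene Ser6 (distance 0.23), at 96.6 FPKM in the labelled recombinant, 5.82 FPKM in Hsp90GFP, 12.03 FPKM in hsromega66 and 2.01 FPKM in WT. kappaTry (0.26) and CG31343 (0.30) came next. Amy-p was nearest to pirk (0.14), a negative regulator of the Imd immune pathway, at 70.3, 10.9, 26.8 and 6.69 FPKM in the same order, followed by the cecropin gene CecA1 (0.21) and CG31789 (0.21). Amyrel was nearest to obst-J (0.18), whose protein is of the chitin-binding obstructor family, at 62.6, 35.2, 77.0 and 23.4 FPKM, followed by the small nucleolar RNA snoRNA:Psi28S-1135e (0.26) and t, the tan hydrolase gene (0.36).

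Amy-d had no neighbour as close. Its nearest genes were CG11034 (distance 0.69), CG11911 (0.76) and the cytochrome P450 gene Cyp4e3 (0.92). CG11911 was at 483 FPKM in the labelled recombinant, 646 FPKM in Hsp90GFP, 1862 FPKM in hsromega66 and 125 FPKM in WT. On the same scale Amy-p and Amy-d lay 2.23 apart, farther than Amy-p from tobi (1.18) or Amy-d from Amyrel (1.63), although the copies lie 4460 bp apart. The distances of both copies rest on how shared reads were split between them, which is uncertain. The widest distance among the 4 genes was 3.23, between Amy-d and tobi.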

How the data were processed

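Per the labels' protocols, RNA was depleted of ribosomal RNA, made into stranded libraries and sequenced as paired reads of 50 bp. Alignment and testing tools were TopHat, Bowtie, Cufflinks and Cuffdiff 2.1.1, with build dm6, per the submitters' processing notes. Per the file headers, the 6 deposited tables give each pair of genotypes 2 group values in FPKM, a test statistic (a score), a p-value and a q-value, all by the authors; the sources used here do not give the normalization option or the set of tests behind q. Group values were the same in every table. Calls by q under 0.05 and status OK matched the authors' flag in 6 of 6 tables. The smallest deposited p-value is 5e-05.

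The genes and the 11 lists were chosen with earlier results of these data known. Of 134 list genes, 124 had own rows (2 under an older symbol), 8 were in merged rows and 2 were not matched; only own rows were counted. Named were the 4 genes, up to 4 called members per pathway list and comparison by size of ratio, 6 nutrient signalling genes and the 3 most alike genes per gene; other genes were chosen after their values were seen. Ratios carry no pseudocount. Gene models come from Ensembl release 115 (BDGP6, dm6 coordinates). No gene sequence is printed, and promoter motifs were not searched. Alternatives were another q threshold, 3 other adjustments, pseudocounts and scaling. Python 3.11.15, pandas 2.3.3, scipy 1.17.1 and matplotlib 3.10.9 were used. The adjustment was tested on simulated normal scores, and the distance search on planted near copies of tobi. These tests check the calculations only and do not bear on the calls or the neighbours reported.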

Additional observations from a re-analysis of the deposited data

How the results depend on the processing

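No paired analysis was possible because the tables hold 1 value per genotype and none per library; for the same reason no replicate could be left out. The 24 log2 ratios of the 4 genes kept their direction with a pseudocount of 1 or 0.1 FPKM and with median-scaled groups. They moved by less than 1 implied standard error in each. The pseudocount of 1 moved them by -0.32 to 0.06. Taking the values from each comparison's own table could not change them, because group values were the same in every table. Of 30 counts of calls, 22 stayed within 1.5 times at q under 0.01 and 8 did not. A count of 0, as for nutrient signalling in every comparison, could only stay 0 at that stricter threshold. The 22 thus include counts that could not move. With each of the 3 Benjamini-Hochberg adjustments of the deposited p, 26 stayed within 1.5 times. These adjustments were within the table, over all 6 tables, and within the table over genes of at least 1 FPKM. At q under 0.01, the 4 genes had 0 calls in Hsp90GFP and 1 in hsromega66 against WT, the maltase genes had 4 in the labelled recombinant against WT, the gut hydrolases had 2 in hsromega66 against WT and 5 in the labelled recombinant against Hsp90GFP, and the glucose and glycogen enzymes had 0, 1 and 0 in the labelled recombinant against WT, hsromega66 and Hsp90GFP. Adjusted within the table, with or without the minimum of 1 FPKM, the 4 genes had 0 calls in Hsp90GFP and 1 in hsromega66 against WT, and the gut hydrolases 1 and 2. Adjusted over all 6 tables, the 4 genes had 1 call in hsromega66 against WT, Amy-d, the gut hydrolases had 4 there, and the glucose and glycogen enzymes had 1 in the labelled recombinant against WT and 0 against Hsp90GFP. The cause was not tested. Depth is unknown, so what it limits cannot be given.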
